A study of Mus musculus with 8 samples.

Results

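The genes described here encode respiratory complexes I, II and III of the mitochondrial inner membrane together with their assembly factors. A gene was a member if its symbol in the array annotation began with Nduf, Sdha, Sdhb, Sdhc, Sdhd or Uqcr, which gave 60 of 18193 genes. Each gene was read by its brightest probe set among those that name a single gene. 59 members were bright enough to be tested, which meant a signal above the array's own median on at least 2 arrays. Ndufb4, an accessory subunit of complex I, was not tested and read 2.63 to 3.56 on the log2 scale over the 8 arrays.

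Complex I passes electrons from NADH to ubiquinone and pumps protons, complex II (succinate dehydrogenase) feeds electrons from succinate into the same ubiquinone pool and is also an enzyme of the tricarboxylic acid cycle, and complex III passes the electrons on to cytochrome c. Core subunits of complex I carry the flavin and iron-sulfur clusters, accessory subunits surround them, and assembly factors help to build a complex without staying in it. Blood progenitors use both glycolysis and respiration, and the balance between them is known to shift as cells begin to divide and differentiate. Subunits encoded in mitochondrial DNA do not carry these symbols and are not described.

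The cells were common lymphoid progenitors, bone marrow cells able to give rise to B, T and innate lymphoid cells, sorted as LIN-, FLT3+, CD127+ and LY6D-. All donors were C57BL/6 mice aged 10 to 13 weeks. They were wild type (WT, 2 arrays), HEB-KO (lacking the E protein encoded by Tcf12, 2 arrays) or E2A-KO (lacking the E proteins encoded by Tcf3, 4 arrays). Each sort pooled several marrows and each genotype had at least 2 sorts, so a p-value here reflects variation from pool to pool or array to array rather than from mouse to mouse. The labels leave unsaid whether the 4 E2A-KO arrays came from 4 sorts. The labels do not describe the alleles or a Cre driver.

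The targeted genes followed the labels. Tcf3 read 7.76 and 7.98 on the WT arrays and 3.71 to 4.28 on the E2A-KO arrays, and Tcf12 read 8.85 and 8.76 on the WT arrays and 7.10 and 6.49 on the HEB-KO arrays. The gate genes Flt3 and Il7r were present on every array, while Il7r was lower in E2A-KO by 2.15 on the log2 scale (limma, adjusted p = 0.0330). The progenitor marker Cd93 was also called lower in E2A-KO, at -1.34 (adjusted p = 0.0273), and Kit differed by -2.08 (adjusted p = 0.0823). Of 4 myeloid markers 2 were tested, Lyz2 at -1.49 (adjusted p = 0.118) and Csf1r at -1.36 (adjusted p = 0.116) in E2A-KO, and no gene of the B, T, NK, erythroid and cycling lists was called. Ly6d, whose protein was gated out, read 3.53 and 7.83 in WT, 7.52 and 3.63 in HEB-KO, and 4.26 to 6.88 in E2A-KO. The mean of 5 neutrophil granule genes was 3.67 and 5.63 in WT, 6.84 and 8.80 in HEB-KO, and 3.67 to 7.48 in E2A-KO, with the highest E2A-KO value on array 3. Upper-quartile intensity was 64.5 and 66.1 in WT, 68.5 and 63.3 in HEB-KO and 54.9 to 62.8 in E2A-KO, and the hybridization control signal was 11.4 and 10.3, 10.3 and 11.6, and 11.5 to 12.6 in the same order. The actin 3' minus 5' signal, a sign of RNA integrity and amplification, was 4.45 and 3.84 in WT, 3.37 and 3.58 in HEB-KO, and 3.86 to 4.78 in E2A-KO. The hybridization control was also fitted as a covariate, with the values given beside the results, and the part of the other measures was not tested. In bulk RNA fewer cells of a type and less RNA per cell cannot be told apart.

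Loss of E2A was first compared with WT. None of the 59 tested members passed the threshold in either direction (limma, adjusted p under 0.05), where 0.393% of all 11957 tested genes were called lower and 0.0502% higher. At an unadjusted p under 0.05, 4 members were lower and 0 higher, against a background of 9.8% and 3.57% of all tested genes. At the looser adjusted threshold of 0.10 the members called were again 0, with backgrounds of 1.1% lower and 0.176% higher, and 2 members differed by at least 2-fold, with a background of 6.05%. The mean was lower in E2A-KO for 37 members and higher for 22, where 54.9% and 45.1% of all tested genes were. The median log2 difference was -0.09 over the members and -0.05 over all tested genes, and the members' value was -0.23 without WT array 1 and -0.03 without WT array 2. With the hybridization control as covariate the direction turned, to 0.10 for the members and 0.07 for all tested genes. After each array was centred on its median the values were -0.14 and -0.10, and under cyclic loess they were 0.00 for both. Over the 7557 brighter genes, those above the array's 75th percentile on at least 2 arrays, the median as deposited was -0.16. The 95% interval lay within 2-fold in either direction for 47 members, and the missing calls do not show that the other members were alike in both genotypes.

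The median differences of the role groups in E2A-KO lay between -0.31 and 0.18. The complex II group held the subunits Sdha, Sdhb, Sdhc and Sdhd, at -0.13, -0.30, 0.05 and -1.01. It also held the assembly factors Sdhaf1, Sdhaf2, Sdhaf3 and Sdhaf4, at -0.33, 0.05, -1.13 and -0.64. The median log2 difference of this group was -0.31, with 6 of 8 below WT. Complex I assembly factors had a median of 0.18, with 6 of 8 above WT. These directions were the same after centring and under cyclic loess, where the medians were -0.21 and 0.18. The median was -0.13 for 6 core subunits, -0.19 for 27 accessory subunits and 0.00 for 8 complex III genes. Under cyclic loess these medians were -0.01, -0.07 and 0.10. With the hybridization control as covariate the core and accessory medians turned to 0.01 and 0.10, with 8 of 27 accessory subunits below WT. Complex II was then at -0.10, with 7 of 8 below WT, assembly factors at 0.35 and complex III at 0.19.

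**Figure D1:**
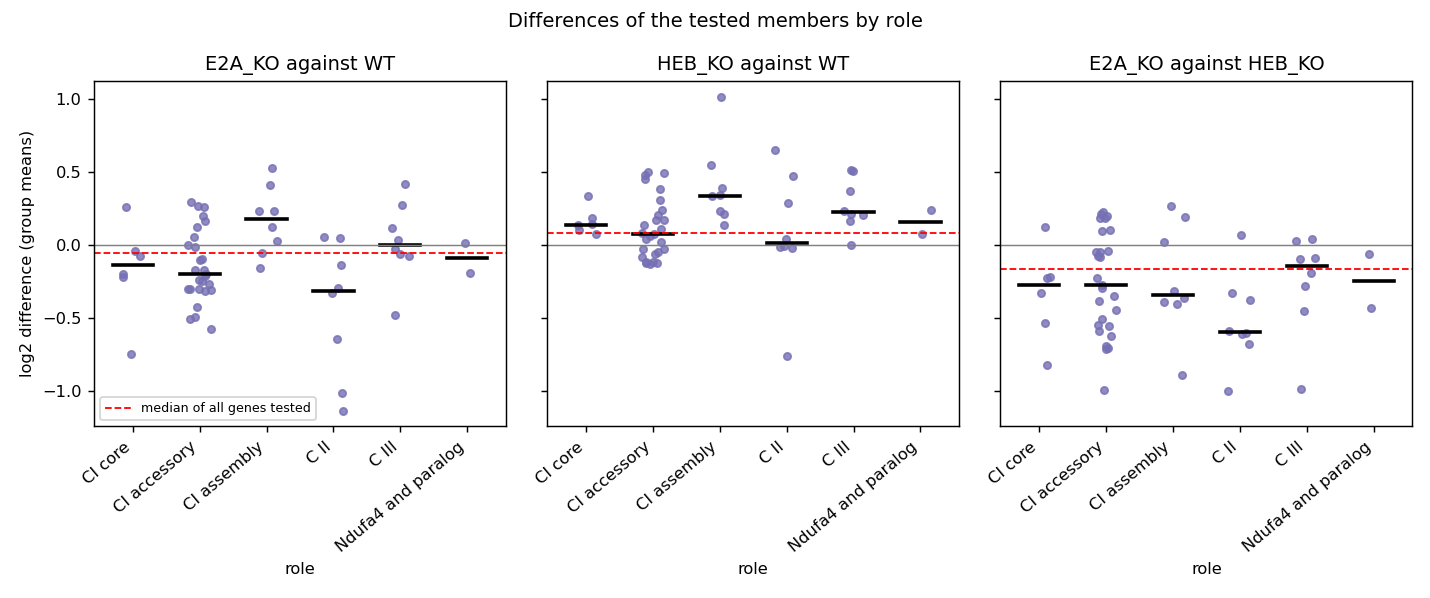
Log2 difference of each of the 59 tested members (points) by role for the 3 comparisons, with the median of each role (black bar) and of all genes tested (dashed red line); CI is complex I, C II is complex II and C III is complex III. In E2A-KO against WT the complex II median, its assembly factors included, is -0.31, and the complex I assembly factor median is 0.18.

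Arrays of E2A-KO and WT did not overlap for 13 members that read lower in E2A-KO and 9 that read higher, with backgrounds of 15.4% and 9.98% of all tested genes. The 13 were 9 accessory subunits, 3 complex II genes and 1 core subunit. The 9 were 5 accessory subunits, 2 assembly factors, 1 core subunit and 1 complex III subunit. After centring on the array medians the counts were 13 and 5, with backgrounds of 17.4% and 7.64%.

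Among the core subunits of complex I, Ndufs1, the large iron-sulfur subunit that takes electrons from the flavin site, read 8.71 and 8.33 in WT, 8.73 and 8.46 in HEB-KO, and 8.05, 7.49, 7.45 and 8.12 in E2A-KO. All 4 E2A-KO arrays lay below every WT and HEB-KO array. The log2 difference from WT was -0.74 (SE 0.27, 95% interval -1.36 to -0.13, adjusted p = 0.296). Ndufs7, an iron-sulfur subunit next to the ubiquinone site, lay the other way: it read 10.80 and 10.88 in WT, 10.97 and 10.98 in HEB-KO, and 11.10, 11.13, 10.98 and 11.21 in E2A-KO. Both knockouts lay above WT, by 0.14 (SE 0.22) in HEB-KO and 0.27 (SE 0.19) in E2A-KO. Its second probe set gave -0.22 in E2A-KO. Ndufs8, the other iron-sulfur subunit of that region, differed by -0.22 (SE 0.21), and its E2A-KO arrays overlapped WT. Ndufs3, a core subunit of the peripheral arm, differed by -0.20 (SE 0.24) in E2A-KO and 0.34 (SE 0.28) in HEB-KO.

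Of the accessory subunits, Ndufs4, whose loss in mice causes a Leigh-like brain disease, read 7.63 and 7.59 in WT, 7.99 and 7.51 in HEB-KO, and 6.96, 7.31, 6.81 and 7.07 in E2A-KO. No E2A-KO array reached the lowest WT or HEB-KO value. The log2 difference was -0.57 (SE 0.23, 95% interval -1.10 to -0.05, adjusted p = 0.339), and its second probe set gave -0.19. Ndufs5, an accessory subunit on the intermembrane space side, read 5.80 and 5.97 in WT, 6.86 and 5.91 in HEB-KO, and 5.55, 5.49, 5.28 and 5.28 in E2A-KO. HEB-KO array 1 stood above all others. Ndufa10 read 10.06 and 9.91 in WT and 10.39, 10.21, 10.10 and 10.44 in E2A-KO. Its difference was 0.30 (SE 0.22), the largest positive value of an accessory subunit, and its second probe set gave -0.28. Ndufb11, a membrane arm subunit, differed by -0.17 (SE 0.20) in E2A-KO and -0.12 (SE 0.24) in HEB-KO. Ndufb7, another subunit of that arm, differed by 0.06 (SE 0.21) and -0.13 (SE 0.24), with overlapping arrays in both.

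Among the complex I assembly factors, Ndufaf4, which works with Ndufaf3 in building the ubiquinone module, read 7.43 and 7.16 in WT, 7.46 and 7.80 in HEB-KO, and 7.75, 7.85, 8.21 and 7.49 in E2A-KO. By the brightest probe set every knockout array lay above both WT arrays, which both comparisons share. Its second probe set gave 0.08 in E2A-KO and 0.37 in HEB-KO, and there the arrays of both knockouts overlapped WT. The log2 difference by the brightest was 0.53 (SE 0.25, 95% interval -0.04 to 1.10, adjusted p = 0.404) in E2A-KO and 0.34 (SE 0.29) in HEB-KO. Ndufaf8, a partner of Ndufaf5, read 8.66 and 8.91 in WT, 8.77 and 9.08 in HEB-KO, and 9.43, 9.31, 9.06 and 8.99 in E2A-KO. It was 0.41 (SE 0.22) above WT in E2A-KO, with no overlap of the arrays. Ndufaf6 differed by -0.15 (SE 0.34) in E2A-KO, with overlapping arrays.

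Among the complex II genes, Sdhd, a membrane anchor that holds the ubiquinone site with Sdhc, read 7.05 and 7.40 in WT, 7.66 and 6.76 in HEB-KO, and 6.94, 6.05, 5.81 and 6.06 in E2A-KO. The E2A-KO arrays lay below both WT arrays, the first by a small margin. The log2 difference was -1.01, a 2.02-fold lower mean (SE 0.37, 95% interval -1.84 to -0.18, adjusted p = 0.288). Its second probe set gave -0.12, and with the hybridization control as covariate the brightest gave -0.14. Sdhc, the other anchor, read 6.79 and 6.63 in WT, 6.59 and 6.80 in HEB-KO, and 6.76, 6.64, 6.81 and 6.83 in E2A-KO. The genotypes overlapped, with a range of 0.24 over the 8 arrays and differences of 0.05 (SE 0.19) in E2A-KO and -0.01 (SE 0.22) in HEB-KO; its second probe set gave -0.28 and 0.78.

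Sdha, the flavin subunit, read 9.53 and 9.86 in WT, 10.36 and 9.98 in HEB-KO, and 9.88, 9.32, 9.56 and 9.49 in E2A-KO. The E2A-KO difference was -0.13 (SE 0.24), and the HEB-KO difference was 0.48 (SE 0.28), with both HEB-KO arrays above WT by the brightest probe set. Its second probe set gave 0.2758 in HEB-KO, with the lower HEB-KO array below the higher WT array. Sdhb, the iron-sulfur subunit, read 10.22 and 10.51 in WT, 10.68 and 10.64 in HEB-KO, and 10.32, 9.85, 9.91 and 10.20 in E2A-KO. Its differences from WT were -0.30 (SE 0.22) and 0.29 (SE 0.26) in the same order of E2A-KO and HEB-KO.

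Sdhaf3, which helps to insert iron-sulfur clusters into Sdhb, read 5.35 and 4.23 in WT, 4.78 and 3.30 in HEB-KO, and 3.91, 3.10, 3.99 and 3.64 in E2A-KO. The WT arrays lay far apart, and HEB-KO array 2 lay among the E2A-KO arrays. Those E2A-KO and HEB-KO array 2 values were near or below the array medians of 3.82 to 3.95. The log2 difference in E2A-KO was -1.13 (SE 0.47, 95% interval -2.19 to -0.08, adjusted p = 0.347), and it was -0.57 without WT array 1 and -1.69 without WT array 2. Sdhaf2, which attaches the flavin to Sdha, read 6.40 and 6.70 in WT, 6.94 and 7.46 in HEB-KO, and 6.81, 6.03, 6.72 and 6.84 in E2A-KO. By the brightest probe set both HEB-KO arrays were above all the others. Its second probe set gave a HEB-KO difference from WT of 0.196, with HEB-KO array 1 below WT array 1 and E2A-KO array 1.

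Among the complex III genes, Uqcr11, a small subunit of the complex, read 9.39 and 9.43 in WT, 10.06 and 9.79 in HEB-KO, and 9.98, 9.79, 9.63 and 9.94 in E2A-KO. All 6 knockout arrays lay above both WT arrays. The log2 difference was 0.42 (SE 0.21, adjusted p = 0.410) in E2A-KO and 0.51 (SE 0.24, adjusted p = 1) in HEB-KO. Uqcrc2, a core protein of complex III, had the smallest range of all tested members, 0.20 over the 8 arrays, against a median range of 0.83. Its second probe set ran from 9.26 to 9.98 and gave 0.38 in HEB-KO against WT and -0.40 in E2A-KO against HEB-KO. Uqcrh, the hinge protein that meets cytochrome c, read 8.25 and 8.59 in WT, 9.49 and 8.37 in HEB-KO, and 8.11, 7.40, 7.50 and 8.78 in E2A-KO. Its E2A-KO values overlapped WT, with differences of -0.48 (SE 0.44) in E2A-KO and 0.51 (SE 0.51) in HEB-KO. Uqcrb, which helps to form the ubiquinone pocket, differed by -0.02 (SE 0.19) and 0.17 (SE 0.22).

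Ndufa4, once counted with complex I and now known as a subunit of cytochrome c oxidase, differed by -0.19 (SE 0.23) in E2A-KO and 0.24 (SE 0.26) in HEB-KO. Its hypoxia-induced paralog Ndufa4l2 read 3.57 to 4.17 on all arrays, near the array medians of 3.82 to 3.95.

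**Figure D2:**
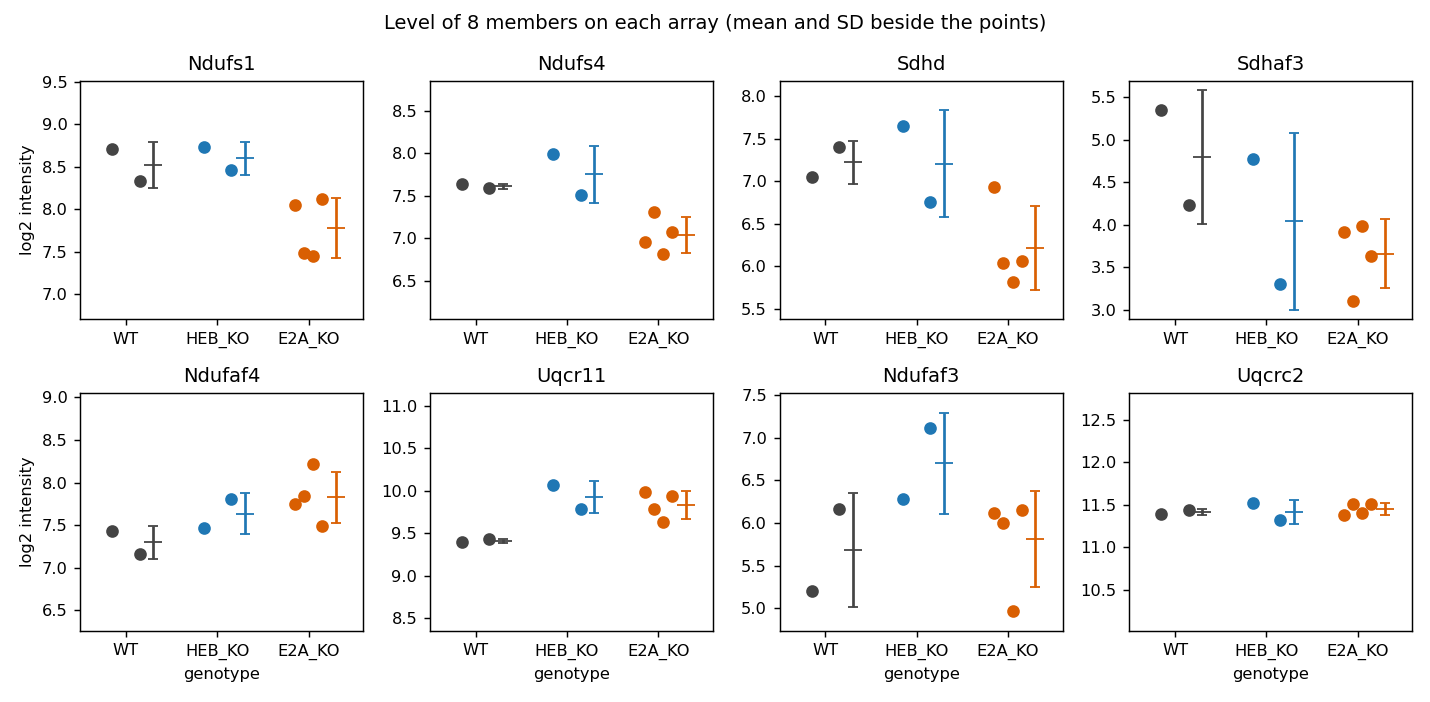
Log2 intensity of 8 members, each by its brightest probe set, on each array (points) by genotype, with the mean and SD of the genotype beside the points. Ndufs1 and Ndufs4 lie lower on all E2A-KO arrays than on any other array, Ndufaf4 and Uqcr11 lie higher on all knockout arrays than on WT, and Uqcrc2, by its brightest probe set, varies by 0.20.

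Loss of HEB was compared with the same WT arrays, so the comparisons of both knockouts with WT are not independent. None of the 59 members was called (limma, adjusted p under 0.05), nor was any of the 11957 genes, a background of 0.0%. The targeted gene Tcf12 was itself not called, at -2.01 (limma, adjusted p = 0.328). The missing calls therefore do not show that the members were alike in HEB-KO and WT. The 95% interval lay within 2-fold in either direction for 43 members. At an unadjusted p under 0.05, 0 members were lower and 0 higher, with 0.761% and 1.85% of all tested genes. Of the members, 45 had a higher mean in HEB-KO than in WT and 14 a lower one, where 61.8% of all tested genes were higher and 38.2% lower. At least 2-fold apart was 1 member, with a background of 1.52%. The median log2 difference was 0.17, against 0.09 over all tested genes. After centring on the array medians these were 0.21 and 0.13, and under cyclic loess 0.08 and 0.02. Over the 7557 genes above the array's 75th percentile on at least 2 arrays the median as deposited was 0.11.

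The 2 arrays of each genotype did not overlap for 18 members that read higher and 2 that read lower in HEB-KO, with backgrounds of 23.4% and 11.4%. After centring the counts were 20 and 0, with backgrounds of 27.4% and 9.26%. All 8 assembly factors, all 8 complex III genes and all 6 core subunits of complex I had a higher mean in HEB-KO, with medians of 0.34, 0.23 and 0.14. Under cyclic loess 1 complex III gene and 1 core subunit turned negative and the medians were 0.23, 0.12 and 0.06. The accessory subunits had a median of 0.08, which was -0.02 under cyclic loess. Complex II had a median of 0.02, with 4 of 8 genes below WT, and of -0.09 with 5 of 8 below WT under cyclic loess.

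The 3 members with the smallest p in this comparison were Uqcr11, Ndufaf3 and Sdhaf2. Ndufaf3, an assembly factor of the ubiquinone module, read 5.21 and 6.16 in WT, 6.28 and 7.12 in HEB-KO, and 6.11, 6.00, 4.97 and 6.16 in E2A-KO. The HEB-KO arrays lay above all the others, but the lower HEB-KO array was close to the higher WT array. The log2 difference was 1.02 (SE 0.49, 95% interval -0.10 to 2.13, adjusted p = 1). For Sdhaf2 it was 0.65 (SE 0.34, adjusted p = 1), and its second probe set gave 0.196.

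HEB-KO array 1 held the highest value of the 8 arrays for 29 of the 59 members, or 49.2%, where it did so for 21.5% of all tested genes. E2A-KO array 3 held the lowest value for 21 members, or 35.6%, against 25.9% of all tested genes. The mean over the 59 members was 8.68 and 8.84 in WT, 9.06 and 8.82 in HEB-KO, and 8.76, 8.63, 8.53 and 8.66 in E2A-KO. HEB-KO array 2 therefore lay within the WT pair, and the HEB-KO median without array 1 was 0.06, close to 0.05 for all tested genes. The hybridization control was lowest on WT array 2 and HEB-KO array 1, at 10.3 each, and with its level as covariate the HEB-KO median was 0.18. The actin 3' minus 5' signal was lowest on HEB-KO array 1, at 3.37, and highest on E2A-KO array 2, at 4.78, where the complex II mean was lowest, at 6.72. Its part in these values was not tested.

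**Figure D3:**
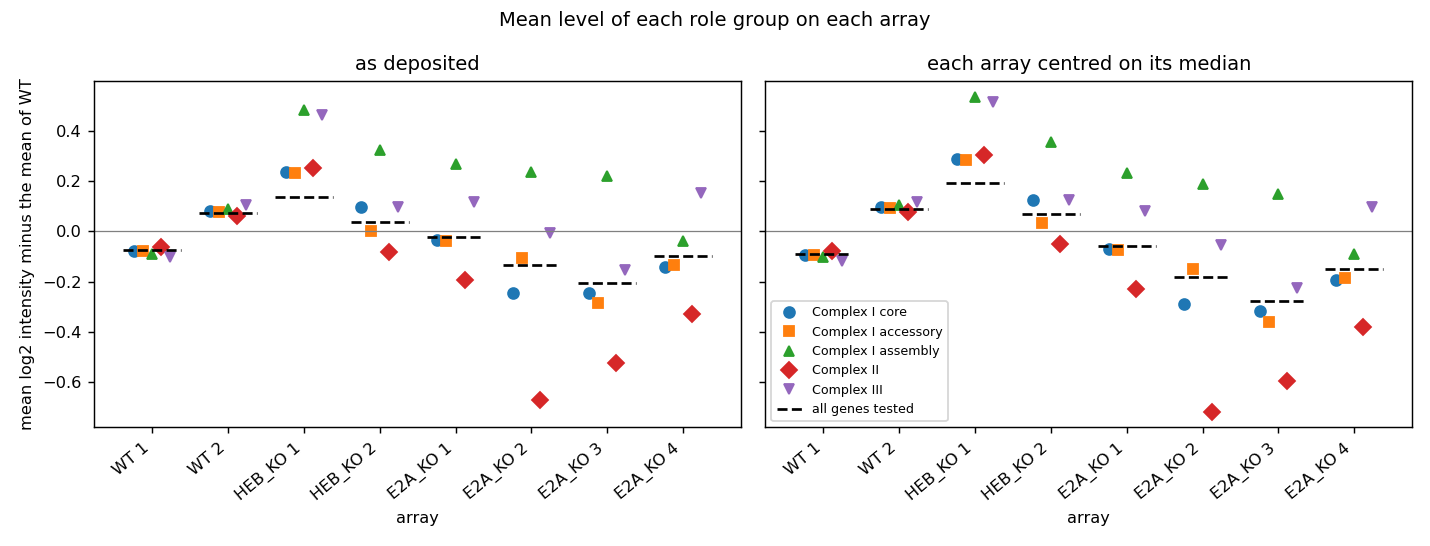
Mean log2 intensity of each role group on each array, minus the mean of the 2 WT arrays, as deposited (left) and with each array centred on its median (right); the dashed bars are all genes tested. Relative to WT, complex II, its assembly factors included, lies below the other role groups on every E2A-KO array. All 5 role groups drawn are at their highest on HEB-KO array 1.

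The 2 knockouts were then set against each other, which shares its arrays with both comparisons above. None of the 59 members was called (limma, adjusted p under 0.05), against 0.1% of all tested genes called lower in E2A-KO and 0.0167% higher. At an unadjusted p under 0.05, 10 members were lower in E2A-KO and 0 higher, or 16.9% against a background of 13.8% lower and 2.69% higher. At an adjusted threshold of 0.10 the members called were 0, with backgrounds of 0.661% and 0.0585%, and 0 members were 2-fold apart, with a background of 6.97%. The 10 were Ndufs1, Ndufs4, Ndufs5, Ndufa9, Ndufb2, Ndufb3, Sdha, Sdhb, Sdhd and Sdhaf4. Arrays did not overlap for 21 members lower and 3 higher in E2A-KO, with backgrounds of 21.6% and 7.82%. After centring these were 27 and 0, with backgrounds of 27.0% and 4.57%.

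The median log2 difference between the knockouts was -0.31 over the members and -0.16 over all tested genes, after centring -0.41 and -0.26, and under cyclic loess -0.14 and -0.03. Cyclic loess moved the median of all tested genes by 0.13. Relative to all tested genes the members stood at -0.15 as deposited and -0.11 under cyclic loess. Over the 7557 brighter genes, those above the array's 75th percentile on at least 2 arrays, the median was -0.29 as deposited, close to that of the members. Without HEB-KO array 1 the median was -0.15 for the members and -0.11 for all tested genes, and with the hybridization control as covariate it was -0.07 and -0.04. The mean was lower in E2A-KO for 45 members and higher for 14, with backgrounds of 62.9% and 37.0%. By the brightest probe sets the smallest p was that of Ndufs5, at -0.99 (SE 0.28, 95% interval -1.62 to -0.36, adjusted p = 0.175), with all E2A-KO arrays below both HEB-KO arrays. For Ndufs4 the difference was -0.71 (SE 0.23, adjusted p = 0.206), although its second probe set gave 0.01. For Ndufs1 it was -0.82 (SE 0.27, adjusted p = 0.214).

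Members with several probe sets did not always give 1 answer. Of 119 probe sets that name a single member, 108 were tested and 0 were called in any comparison (limma). The smallest limma adjusted p, 0.127, was that of a Ndufv2 probe set in E2A-KO against HEB-KO, at -1.08. Its E2A-KO arrays lay below all WT and HEB-KO arrays. The brightest and second probe sets of Ndufv2, a core subunit of complex I, gave -0.21 and -0.26 in that comparison. For 31 members with 2 or more tested probe sets, both signs occurred in 14 members in E2A-KO against WT, in 11 in HEB-KO against WT and in 14 in E2A-KO against HEB-KO. The median spread between probe sets of a gene was 0.32, 0.31 and 0.52 on the log2 scale in that order, against median SEs of 0.23, 0.27 and 0.23 for single members. Ndufb8 had the largest spread in E2A-KO against WT, 1.38: its brightest probe set gave 0.20 and the other -1.18. For Ndufab1, the acyl carrier protein of complex I, the brightest gave -0.30 and the second 0.50. Uqcrq, a ubiquinone-binding subunit of complex III, gave 0.28 and 0.81, both positive. The median over the 31 was -0.04 for the brightest and -0.18 for the second probe set in E2A-KO, and 0.14 and 0.28 in HEB-KO.

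**Figure D4:**
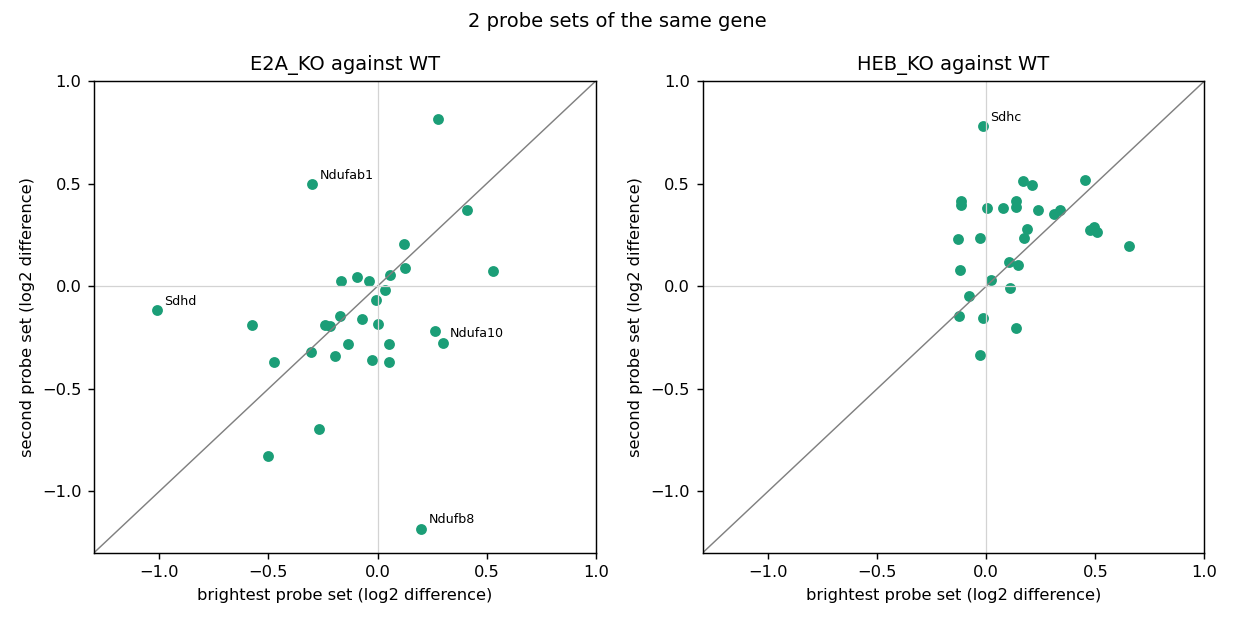
Log2 difference by the brightest (horizontal) and the second brightest (vertical) probe set of the same gene for the 31 members with 2 or more tested probe sets, in E2A-KO against WT (left) and HEB-KO against WT (right); the line marks equal values, and the genes farthest from it are named. On the left, the 2 probe sets of Ndufb8 lie on opposite sides of 0, at 0.20 and -1.18.

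Promoters of these genes are known to carry sites for NRF1, ETS factors such as GABP, and YY1, which drive nuclear genes of the mitochondrion. RefSeq promoter windows of 300 bases (250 before and 50 after the annotated start, GRCm38.p6) were found for 51 of the 60 members, 53 windows in all. The cores searched, on both strands, were GCATGCG for NRF1, CCGGAAG for ETS factors, ATGGCGG for YY1 and the E boxes CAGGTG and CAGCTG, none of which contains another. The NRF1 core was in 13.2% of member windows against 3.58% of all windows, the ETS core in 24.5% against 8.86%, and the YY1 core in 20.8% against 4.05%. Protein-coding windows alone gave 4.44%, 11.6% and 5.24%. At least 1 of the 3 cores occurred in 26 members and all 3 in 0. The E box CAGGTG, bound by E proteins, was in 18.9% of member windows and 20.2% of all, and CAGCTG in 7.55% and 16.3%. These are counts of letters, not of bound sites. The YY1 core begins with ATG and lay after the annotated start in Ndufa9, Ndufaf8, Ndufb5, Ndufs4 and Ndufs7. It lay before the start in Ndufa1, Ndufa5, Ndufa7, Ndufaf7 and Sdhaf2. How many of these letters are the beginning of a coding sequence was not tested.

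4 promoters are shown of genes whose brightest probe set lay outside the WT arrays in E2A-KO, lower for Sdhd and Ndufs4 and higher for Ndufaf4 and Uqcr11. They are examples from the 13 lower and 9 higher members without overlap, and all 4 hold a core. Windows of others in that set held none of the cores searched, among them Ndufab1 and Ndufc2 (lower) and Ndufa10 and Ndufb8 (higher). Capitals mark the cores, and each runs 5' to 3' on the strand of its gene: Sdhd at chr9:50603800-50604099 (minus), Ndufs4 at chr13:114388045-114388344 (minus), Ndufaf4 at chr4:24897833-24898132 (plus) and Uqcr11 at chr10:80406772-80407071 (minus).
Sdhd: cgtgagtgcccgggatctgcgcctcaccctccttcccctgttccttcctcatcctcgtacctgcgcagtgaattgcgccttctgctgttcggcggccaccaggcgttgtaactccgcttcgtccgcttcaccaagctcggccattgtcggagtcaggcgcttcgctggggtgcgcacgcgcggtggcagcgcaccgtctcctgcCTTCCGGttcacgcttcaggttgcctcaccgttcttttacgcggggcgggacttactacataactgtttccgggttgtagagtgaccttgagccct
Ndufs4: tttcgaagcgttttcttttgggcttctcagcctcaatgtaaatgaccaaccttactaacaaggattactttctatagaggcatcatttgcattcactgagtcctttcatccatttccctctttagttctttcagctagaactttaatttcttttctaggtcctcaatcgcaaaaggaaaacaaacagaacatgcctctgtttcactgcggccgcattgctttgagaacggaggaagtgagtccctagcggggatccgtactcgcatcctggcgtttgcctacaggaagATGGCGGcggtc
Ndufaf4: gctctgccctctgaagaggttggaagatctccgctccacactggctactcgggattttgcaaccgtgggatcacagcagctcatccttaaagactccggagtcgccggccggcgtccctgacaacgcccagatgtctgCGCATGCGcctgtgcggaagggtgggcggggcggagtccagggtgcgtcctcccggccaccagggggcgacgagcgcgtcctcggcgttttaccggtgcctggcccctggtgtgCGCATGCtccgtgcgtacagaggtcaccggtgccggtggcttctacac
Uqcr11: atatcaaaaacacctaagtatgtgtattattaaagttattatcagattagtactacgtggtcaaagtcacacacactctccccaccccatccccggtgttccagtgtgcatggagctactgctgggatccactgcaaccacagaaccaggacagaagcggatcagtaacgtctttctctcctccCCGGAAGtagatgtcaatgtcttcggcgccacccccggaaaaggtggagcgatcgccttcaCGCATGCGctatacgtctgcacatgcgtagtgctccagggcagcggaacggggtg
The Sdhd window held the reverse complement of the ETS core starting 46 bases before the start. In Ndufs4 the YY1 core began at base 39 after the start. Ndufaf4 held overlapping NRF1 cores on both strands from 112 bases before the start and another at base 3. Uqcr11 held an ETS core 66 bases before the start and overlapping NRF1 cores from 5 bases before it. Whether a core went with the direction of a difference was not tested.

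The other genes of energy metabolism were read from lists. In E2A-KO against WT, 0 genes were called in any of the 6 lists (limma), and at an unadjusted p under 0.05 there were 1 lower of 10 tested for complex IV, 2 lower of 16 for complex V, and 0 of 13 for cytochrome c and further factors of complexes I to III. There were 1 lower of 12 for the tricarboxylic acid cycle and 2 lower and 1 higher of 12 for regulators of mitochondrial genes. For glycolysis there were 1 lower and 1 higher of 12. Of all tested genes 9.8% were lower and 3.57% higher at that unadjusted threshold, and 0.393% and 0.0502% were called. Tfam, which packages and transcribes mitochondrial DNA, read 8.15 and 8.09 in WT, 8.34 and 7.80 in HEB-KO, and 7.59, 7.11, 7.10 and 6.93 in E2A-KO. No E2A-KO array reached a value of the other genotypes, and the difference from WT was -0.93 (SE 0.26, adjusted p = 0.173). Hk1, the hexokinase that starts glycolysis on the mitochondrial surface, differed by -1.39 (SE 0.30, adjusted p = 0.0994). Cox7a2l, which joins complexes III and IV, differed by -0.59 (adjusted p = 0.327), Atp5j2 of complex V by -0.51 (adjusted p = 0.318), Dld, the shared lipoamide enzyme, by -0.92 (adjusted p = 0.353), and Cycs, cytochrome c itself, by 0.44 (adjusted p = 0.404). In HEB-KO against WT 0 genes of these lists were called. At an unadjusted p under 0.05, 1 regulator and 1 glycolysis gene were higher, where 1.85% of all tested genes were.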

How the data were processed

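The authors deposited 1 intensity per probe set and array, made with RMA per the submitters' processing notes (version and chip file: not given in the sources used). The size of the values shows a linear scale. Per the labels' protocols, RNA of sorted cells was amplified over more than 1 round before hybridization. These were put on the log2 scale without further normalization. Of 45101 probe sets, 34945 named a single gene, 932 several and 9160 none in the annotation used, and 64 were controls. limma 3.58.1 in R 4.3.3 fitted 1 mean for each genotype over the 8 arrays, which left 5 residual degrees of freedom, and p-values were adjusted by Benjamini-Hochberg over 11957 tested genes. The script was tested on simulated data.

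The number of arrays limits precision. Named were, in each role group, the brightest member and those with the most negative and most positive difference from WT, the complex II subunits, and the 3 members with the smallest p in each comparison. For the other lists, called genes were named or, with none, the gene with the smallest p in E2A-KO against WT. Members and lists were chosen with earlier results of these data known. Uqcrq, Ndufb8, Ndufab1 and Ndufv2 were named after their values were seen. Alternatives were other filters, centring, cyclic loess, other probe set rules, eBayes with trend and robust, only the compared genotypes, a replicate block and leaving out each array. The hybridization control covariate, leaving out 2 arrays together, a crossed block and the second probe set were added after seeing the data.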

Additional observations from a re-analysis of the deposited data

Results flagged for a closer look

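Among values of the 4 E2A-KO arrays, single arrays stood apart from the other 3 in 3 cases, and chance flags about 1 in 20 groups. Ndufaf3 read 4.97 on E2A-KO array 3 and Sdhaf2 read 6.03 on E2A-KO array 2, each the lowest of its group. The mean of the complex I assembly factors was 6.20 on E2A-KO array 4, below the other E2A-KO arrays.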

How the results depend on the processing

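No member was called in any of the 3 comparisons under any alternative that kept the adjusted threshold. At an unadjusted p under 0.05, 4 members were lower in E2A-KO against WT, or 6.78%, where 9.8% of all tested genes were. In E2A-KO against HEB-KO 10 members were lower, or 16.9%, where 13.8% of all tested genes were. The median difference of the members in E2A-KO against WT was 0.10 with the hybridization control as covariate and ranged from -0.23 to -0.025 when each array was left out, lowest without WT array 1 and highest without WT array 2. In E2A-KO against HEB-KO the median was -0.14 under cyclic loess and -0.073 with that covariate. Beyond the members, leaving out WT array 2 cut the calls in E2A-KO against WT from 47 lower and 6 higher to 1 and 1, and eBayes with trend and robust raised them to 77 and 14.

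Some differences of single members, none of them called, changed sign. With the arrays centred on their median, the sign turned for Ndufa4l2 at -0.035 in E2A-KO against WT, and for Sdhc at 0.027 and Sdhd at 0.025 in HEB-KO against WT. Under cyclic loess, the sign turned for Ndufa4l2 at -0.10 in E2A-KO against WT, and for Ndufs1 at -0.044 and Uqcrc2 at -0.064 in HEB-KO against WT. With the mean of all probe sets of a gene, the sign turned for Sdha at 0.12 and Sdhc at -0.11 in E2A-KO against WT, and for Ndufb7 at 0.050 and Sdhc at 0.38 in HEB-KO against WT. With the hybridization control as covariate, the sign turned for Ndufaf6 at 0.26, Sdha at 0.24, Sdhc at -0.11 and Uqcrh at 0.071 in E2A-KO against WT, and for Sdhd at 0.057 in HEB-KO against WT. Without WT array 2 and HEB-KO array 1, the sign turned for Sdha at 0.035 and Sdhc at -0.025 in E2A-KO against WT, and for Ndufs1 at -0.25, Sdhc at 0.0092, Uqcrc2 at -0.070 and Ndufa4 at -0.0051 in HEB-KO against WT. With the second brightest probe set, the sign turned for Ndufs7 at -0.22, Ndufa10 at -0.28 and Sdhc at -0.28 in E2A-KO against WT, and for Ndufb7 at 0.23 and Sdhc at 0.78 in HEB-KO against WT, and for Ndufs4 at 0.013 in E2A-KO against HEB-KO. Leaving out each array gave, in E2A-KO against WT, -0.28 to 0.052 for Ndufaf6, -0.30 to 0.035 for Sdha, -0.025 to 0.13 for Sdhc and -0.12 to 0.16 for Ndufa4l2. Leaving out each array gave, in HEB-KO against WT, -0.12 to 0.27 for Ndufs1, -0.26 to 0.0043 for Ndufb7, -0.017 to 0.29 for Ndufaf8, -0.12 to 0.088 for Sdhc, -0.46 to 0.43 for Sdhd, -0.10 to 0.10 for Uqcrc2 and -0.064 to 0.22 for Ndufa4l2.

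Deviations of same-numbered arrays correlated at -0.28 for WT and HEB-KO, and those of crossed numbers at 0.28. With 2 arrays in each genotype 1 value mirrors the other, so they cannot show whether replicate numbers pair the arrays. Against E2A-KO, number 1 gave -0.15 for WT and 0.15 for HEB-KO, and number 2 gave -0.09 and -0.01. With the replicate number as a block, 0 members were called, 8 genes were called lower and 4 higher in E2A-KO against WT, and Sdhc turned to -0.0081 there. With the HEB-KO numbers crossed, 5 genes were called lower and 3 higher, 0 of them members, and Sdhc gave -0.0081. Where leaving out an array leaves 1 in a genotype, that array was assumed to vary like the others. The cause of these shifts was not tested.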
